A study of Ovis aries with 32 samples.

Results

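The genes of fatty acid synthesis, elongation and desaturation were followed in perirenal preadipocytes of fetal sheep and in the adipocytes made from them. The genes asked for were the 10 symbols FASN, ACACA, ACLY, SCD, ELOVL5, ELOVL6, FADS1, FADS2, THRSP and SREBF1, and members were the genes of the table that carry one of these names. By name the table held 8 of the 10, with 20 transcripts, out of 21271 genes and 35219 transcripts in all. FADS2 and SREBF1 were not listed by name. A gene named SREBP1, which is the name of the protein that SREBF1 encodes, was found after the values had been seen, and its values are given beside the members without being counted among them.

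Perirenal fat was taken from near-term fetuses of crossbred ewes, and RNA was sequenced from the preadipocytes and from cells differentiated to mature adipocytes. The preadipocyte groups were control male (MC), control female (FC), growth restricted male (MFGR) and growth restricted female (FFGR), and their differentiated counterparts were MCD, FCD, MFGRD and FFGRD. Each of the 8 groups had 4 libraries, 32 in all. Growth restriction was produced by keeping the pregnant ewes in a hot environment, which restricts the placenta, and the control ewes were pair-fed to the heated ewes and kept at a moderate temperature. The labels give no animal for a library, and the culture medium and the days of differentiation are not given in the sources used here, so p-values measure the spread between these libraries, which may be partly technical.

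De novo lipogenesis builds fatty acids from acetyl-CoA. ATP citrate lyase (ACLY) cleaves cytosolic citrate to acetyl-CoA, acetyl-CoA carboxylase (ACACA) makes malonyl-CoA, and fatty acid synthase (FASN) joins these units into palmitate. ELOVL6 then lengthens palmitate, SCD places the first double bond of the monounsaturated fatty acids, and ELOVL5 and FADS1 act on polyunsaturated chains. THRSP is a small protein linked to lipogenesis in fat and liver, and SREBF1 encodes a transcription factor that drives many of these genes. In ruminants adipose tissue is the main site of fatty acid synthesis, and acetate is its main carbon source.

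Values are DESeq2-normalized read counts summed over the transcripts of a gene. They are not scaled to gene length here, so levels were compared between libraries and not between genes. Sequencing depth was about 7.76 to 21.32 M reads a library (median 13.41 M), and 1 read was worth approximately 0.696 to 1.787 in the normalized values. The 7 libraries MCD 4, MFGR 1, MFGRD 1, FC 2, FFGR 2, FFGR 3 and FFGRD 3 stood apart. Their slope of log2 values on the log10 genomic span of the transcripts lay between -1.06 and -0.56. In the remaining libraries it lay between -0.47 and 0.40, with MCD 2 (-0.47) and FCD 2 (-0.40) nearest to the 7. Values without the 7 libraries are given where leaving them out changed a result, and MCD 2 and FCD 2 stayed in. Differences are on the log2(value + 1) scale, with standard errors (SE) and adjusted p-values from limma. A gene was called at an adjusted p-value below 0.05 with a fold change above 1.5.

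All 7 of the adipocyte markers listed rose with differentiation, and their summed level ran from 85.8 to 2029 in preadipocytes and from 406 to 184183 in differentiated libraries. LEP, the eighth of that list, was not listed by name. Of the preadipocyte and stromal markers, LUM, DCN and PDGFRB fell and THY1 rose, COL1A1 was at 15368 or more in every library, and DLK1 was at most 2.34. In bulk RNA fewer cells of a type and less RNA per cell cannot be told apart. The 4 adrenal cortex markers also rose, from a summed level of 1.39 to 89.0 in preadipocytes to 12.8 to 2037 after differentiation. Of these, CYP17A1 and HSD3B1 were listed at 0 in every preadipocyte library, and CYP11A1 was at most 0.851 there. CYP17A1, HSD3B1 and CYP11A1 passed the filter on low values only through differentiated libraries. Their calls rest on the stage in which they were high. Among the remaining lists CD14 rose while KDR, DES, MYH11 and PAX8 fell. Over all genes tested, 12.7% rose and 15.2% fell. Of the kidney markers, UMOD was listed at 0 throughout. The part of these cells in the results that follow was not tested.

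Between the stages, 6 of the 8 members were called, 5 higher and 1 lower after differentiation, in a comparison of 16 with 16 libraries in which 27.9% of the 12737 genes tested were called, 12.7% higher and 15.2% lower. The members that rose were THRSP, ELOVL6, SCD, FASN and ACACA. ELOVL5 fell, and ACLY and FADS1 were not called. The median difference of the 8 members was 1.30, beside 0.035 over all genes tested. The members were chosen with earlier results of these data known, so this count and median describe them and are no independent support. THRSP passed the filter on low values only through the differentiated libraries, so its place in these counts rests on the stage in which it was high.

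**Figure D1:**
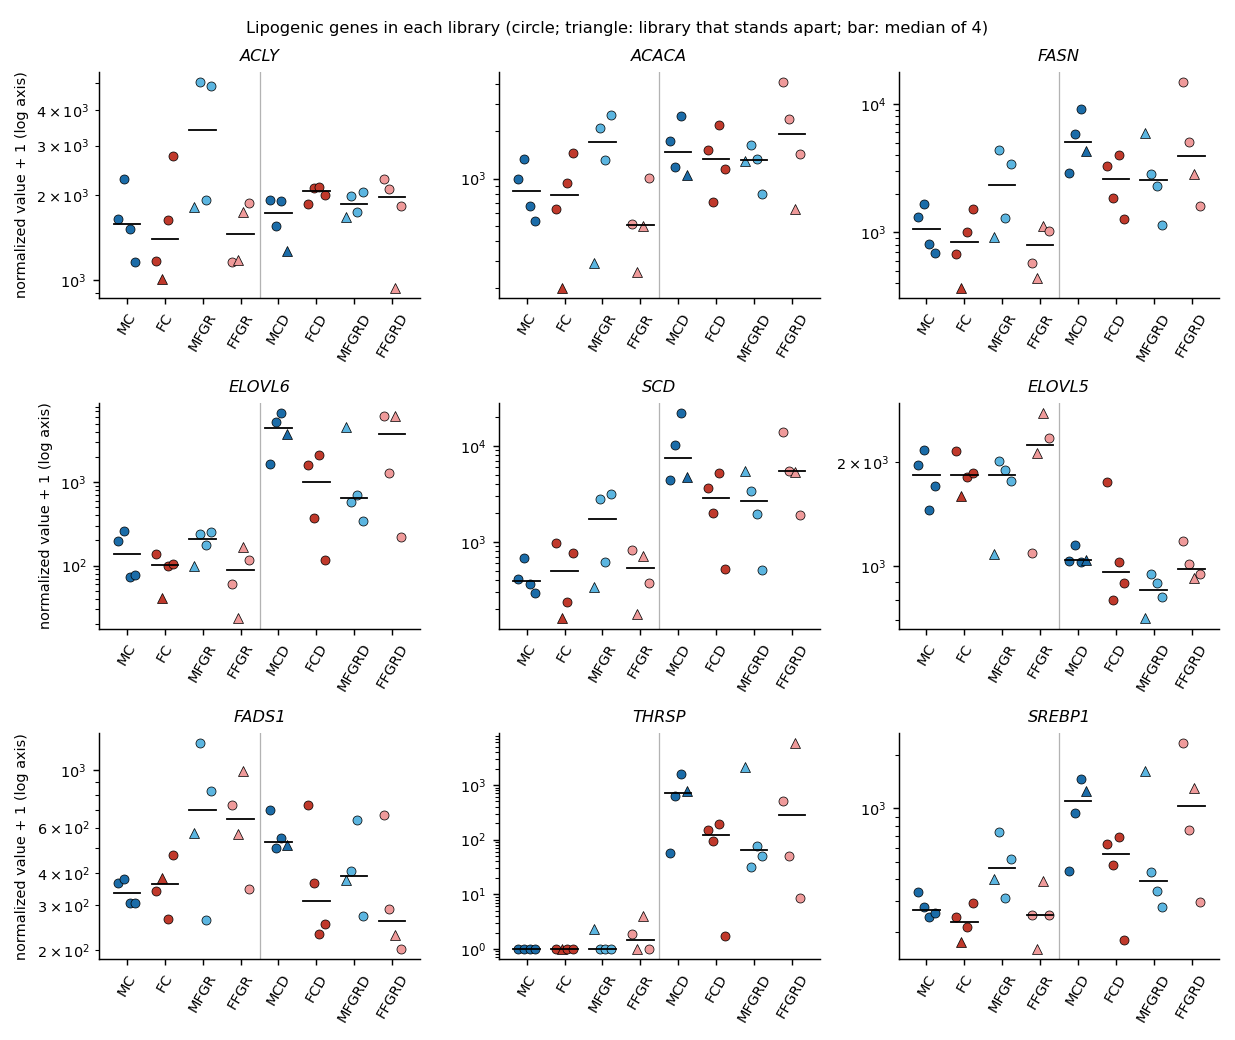
Normalized value + 1 of each gene (log axis) in each library of the 8 groups, with a bar at the median of 4 and triangles for the libraries that stand apart; preadipocytes stand left of the grey line. THRSP and ELOVL6 lie almost wholly higher on the right and ELOVL5 lower, whereas ACLY and FADS1 overlap between the stages.

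ACLY, the step that supplies cytosolic acetyl-CoA, ran from 1004 through a median of 1692 to 5037 in the 16 preadipocyte libraries and from 937 through 1911 to 2287 in the 16 differentiated libraries. All but 1 of the differentiated libraries lay inside the preadipocyte range, and the stage difference was -0.01, with a 95% interval from -0.37 to 0.36 (adjusted p = 0.9813, limma). ACLY had the second smallest pooled spread among the differentiated groups, with an SD of 0.34 on the log2 scale, and a wider one of 0.59 among preadipocytes. The minor transcript ACLY-202 was called at 2.28 (adjusted p = 0.0180, limma), from 7.6% to 17.6% of the summed ACLY values, while ACLY-201 held 90.7% and 81.2%. ACLY-202 was listed at 0 in FC 3, FFGR 2 and FFGR 3, of which the latter 2 stand apart, so its fitted difference depends on the pseudocount.

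ACACA, the malonyl-CoA step, ran from 201 through a median of 801 to 2526 in preadipocytes and from 640 through 1381 to 4106 after differentiation. The stages overlapped widely, with 15 of the 16 differentiated libraries inside the preadipocyte range. The gene was called at 1.89-fold higher, a difference of 0.92 (SE 0.32, adjusted p = 0.0229, limma). Without the 7 libraries that stand apart the difference was 0.59 and the call was lost (adjusted p = 0.0914, limma). With all libraries and the span slope as a covariate it was 0.93 and called (adjusted p = 0.000401, limma). With library weights it was 0.69 and called (adjusted p = 0.0103, limma), so the call was not kept in every setting. The main transcript, ACACA-201, was also not called by itself, at 0.84 (adjusted p = 0.0510, limma).

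FASN, the synthase itself, was at 1311, 1649, 814 and 694 in MC and at 2897, 5856, 9146 and 4312 in MCD. In FC the values were 673, 370, 1010 and 1527, and in FCD they were 3307, 1852, 3968 and 1269. In MFGR they were 925, 4339, 1301 and 3402, and in MFGRD 5895, 2835, 2293 and 1145. These 3 origins differ in overlap, since every MCD library lay above every MC library, FCD 4 lay below FC 4, and the MFGR and MFGRD ranges were interleaved. In FFGR the values were 575, 444, 1129 and 1028, all below the 14756, 5070, 2857 and 1602 of FFGRD. Over both sexes and treatments FASN was 3.21-fold higher in the differentiated libraries, a difference of 1.68 (SE 0.33, adjusted p = 0.000165, limma). Without the 7 libraries that stand apart it was 1.41 and still called.

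FASN was listed as 4 transcripts. FASN-201, FASN-203 and FASN-204 rose by 1.87, 2.07 and 3.21, whereas FASN-202, the transcript with the largest share of the sum in preadipocytes (46.8%), was at 0.75 and not called (adjusted p = 0.5279, limma). Read by FASN-202 in place of the sum, the gene was not called. FASN-204 went from 0.274% to 4.11% of the summed values, a share that rests largely on MCD 2, at 1960, against at most 417 elsewhere. In MCD 2 FASN-202 was listed at 0, and FASN-204 was listed at 0 in 11 of the 16 preadipocyte libraries. The fitted differences of these transcripts therefore depend on the pseudocount. Across all transcripts of the members, 17 of the 20 were tested and 9 called, 7 higher and 2 lower, in a comparison in which 20.4% of the 19469 transcripts tested were called. THRSP-201 and FASN-204, which are among those called higher, passed the filter on low values through the differentiated libraries. Their place in this count rests on the stage in which they were high. How Salmon divides reads between such overlapping transcripts was not tested.

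SCD, which makes oleate and palmitoleate, was at 414, 684, 366 and 291 in MC and at 4438, 10206, 22120 and 4795 in MCD. In FC it was at 984, 159, 236 and 762, and in FCD at 3655, 2023, 5245 and 520. The first pair of groups was fully separated, and in the second FCD 4 fell inside the range of FC. In MFGR the values were 343, 2824, 621 and 3130, and in MFGRD they were 5476, 3414, 1939 and 514, so the groups overlapped through 2 high preadipocyte libraries and 1 low differentiated library. In FFGR they were 828, 176, 706 and 375, below the 14040, 5478, 5385 and 1894 of FFGRD. Over all origins SCD was 6.83-fold higher after differentiation, a difference of 2.77 (SE 0.46, adjusted p = 2.04e-05, limma).

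ELOVL6, the elongase of palmitate, was at 197, 261, 72.2 and 75.6 in MC and at 1663, 5170, 6733 and 3717 in MCD. In FC the values were 137, 39.6, 97.2 and 104, and in FCD 1611, 366, 2135 and 116, the last of which lay inside the FC range. In MFGR they were 98.8, 241, 173 and 249, and in MFGRD 4567, 572, 698 and 337. In both growth restricted origins the stages were separated, since FFGR held 59.1, 22.4, 166 and 115 and FFGRD held 6241, 1272, 6172 and 219. Only 2 of the 16 differentiated libraries, FCD 4 and FFGRD 4, lay inside the range of all preadipocytes. The gene was 12.7-fold higher after differentiation, a difference of 3.66 (SE 0.49, adjusted p = 7.46e-07, limma).

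ELOVL5, the elongase of polyunsaturated chains, moved in the opposite direction. It was at 1965, 2166, 1458 and 1706 in MC and at 1036, 1149, 1031 and 1044 in MCD. In MFGR it was at 1082, 2011, 1903 and 1762, and in MFGRD at 707, 946, 893 and 817. Both pairs were fully separated with the differentiated libraries lower. In FC and FCD, with 1599 to 2155 and 798 to 1748, 1 differentiated library overlapped, and in FFGR and FFGRD, with 1091 to 2776 and 924 to 1179, the first replicates did. The gene was 1.83-fold lower over all origins, a difference of -0.87 (SE 0.12, adjusted p = 1.52e-06, limma), and both of its transcripts fell, by 0.93 and 0.88. ELOVL5 thus had the smallest difference among the called members together with the smallest pooled spread in differentiated cells, an SD of 0.28.

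FADS1, the delta-5 desaturase, ran from 261 through a median of 379 to 1271 in preadipocytes and from 202 through 389 to 733 after differentiation. The stage difference was -0.23 with a 95% interval from -0.71 to 0.25 (adjusted p = 0.5009, limma). By origin the values went different ways: MCD, at 499 to 702, lay above MC, at 304 to 377, in all libraries, while FFGRD, at 202 to 669, overlapped FFGR, at 344 to 993, with a difference of -0.99 (adjusted p = 0.3807, limma). FADS2, the delta-6 desaturase, had no value of its own. An unnamed gene between FADS1 and FADS3 on chromosome 21, at 42141588 to 42273066 in Oar_rambouillet_v1.0, had preadipocyte values of 154 to 1583 and differentiated values of 185 to 957, and was not assigned to FADS2.

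THRSP was listed at 0 in all MC and FC libraries, in 3 of 4 MFGR libraries and in 2 of 4 FFGR libraries. The highest preadipocyte value was 2.94, in FFGR 3. In MCD it was at 55.6, 640, 1599 and 788, in FCD at 151, 94.4, 191 and 0.724, in MFGRD at 2103, 30.3, 76.8 and 49.8, and in FFGRD at 507, 48.3, 5754 and 7.70. Each differentiated group lay above its own preadipocytes, although FCD 4 was within 3 reads of 0. With preadipocyte values at or below 3 reads raised to 3 reads, THRSP was at least 36.3-fold higher over all origins. This fold comes from the difference of mean log2(value + 1), with the differentiated values left as they were. The corresponding bounds were at least 103-fold in MC, 11-fold in FC, 31.7-fold in MFGR and 48-fold in FFGR. The gene was called between the stages (adjusted p = 1.54e-08, limma), and its fitted difference of 6.98 depends on the pseudocount. THRSP also had the widest spread between differentiated libraries, an SD of 3.12.

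The gene listed as SREBP1, on chromosome 11, was at 337, 276, 244 and 256 in MC and at 444, 948, 1458 and 1261 in MCD. In FC it was at 174 to 290 and in FCD at 180 to 688, in MFGR at 310 to 737 and in MFGRD at 277 to 1635, and in FFGR at 160 to 387 and in FFGRD at 296 to 2329. The male control stages were separated and the stages of the remaining origins overlapped. Between the stages SREBP1 was 2.26-fold higher, a difference of 1.17 (SE 0.29, adjusted p = 0.0016, limma).

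Among the 16 differentiated libraries the members differed in how they followed ADIPOQ, the adipocyte hormone adiponectin. Pearson's r of log2 values with ADIPOQ was 0.96 for ELOVL6, 0.93 for THRSP, 0.93 for SREBP1, 0.88 for SCD and 0.82 for FASN. It was 0.40 for FADS1, 0.27 for ACACA, 0.18 for ELOVL5 and -0.40 for ACLY. Without the libraries that stand apart, which left 13, these 4 were at 0.57, 0.60, 0.42 and -0.10, and the first 5 lay between 0.88 and 0.95. These correlations are descriptions over 16 libraries of 4 groups, which share depth and library quality. ADIPOQ itself ran from 8.59 in FCD 4 to 13421 in MCD 3, and FCD 4 was the differentiated library with the least THRSP, ELOVL6 and SREBP1.

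**Figure D2:**
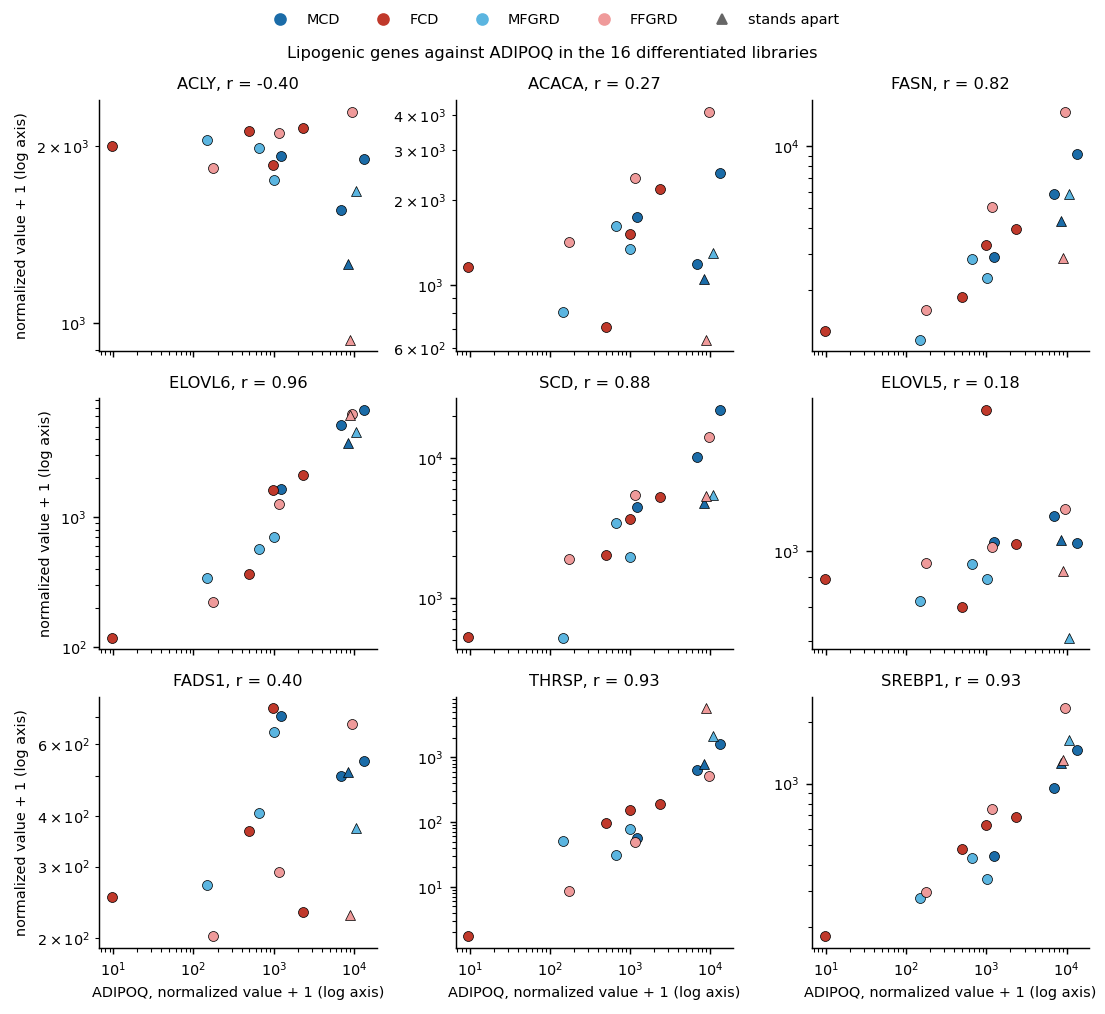
Normalized value + 1 of each gene against that of ADIPOQ in the 16 differentiated libraries (both axes log), colored by group, with triangles for libraries that stand apart and Pearson's r of the log2 values over each panel. ELOVL6, THRSP and SREBP1 follow ADIPOQ from FCD 4 upward (r of 0.93 to 0.96), and ACLY and ELOVL5 have r of -0.40 and 0.18, which become -0.10 and 0.42 without the triangles.

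FASN and SCD followed each other among differentiated libraries (r = 0.92), and so did ELOVL6 and THRSP (r = 0.91), whereas FASN and ACLY did not (r = 0.01). In the 16 preadipocyte libraries FASN and ACLY had r = 0.96, and FASN had r = 0.89 with ACACA, 0.84 with ELOVL6 and 0.81 with SCD. Without the libraries that stand apart, which left 12, these were 0.98, 0.96, 0.80 and 0.72 in the same order. Spearman's rho over the 16 was 0.93, 0.88, 0.88 and 0.60. MFGR 2 and MFGR 4 held the highest 2 values of both FASN and SCD. Among the named genes tested between the stages, those most like FASN over the differentiated libraries were SCD (0.925), JAG1 (0.919) and COL15A1 (0.898). For SCD they were RXRA (0.953), ABCG1 (0.934) and FASN (0.925), and for THRSP they were RXRG (0.969), GPD1 (0.968) and IRF8 (0.962).

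Within the preadipocytes, MFGR 2 and MFGR 4 held the highest 2 of the 16 values of FASN, ACACA, ACLY, SCD and SREBP1. Their SCD values of 2824 and 3130 compare with a median of 394 and a maximum of 984 in the remaining 14 libraries. Their ACLY values of 5037 and 4873 compare with a maximum of 2765. ELOVL5, at 2011 and 1762, stood inside the range of the others. INSIG1, a sterol-regulated gene that restrains SREBP processing and was singled out after its values were seen, was at 1139 and 1431, against at most 718. MFGR 1 and MFGR 3, at 343 and 621 for SCD and at 1807 and 1916 for ACLY, lay within the range of the other preadipocyte groups, whereas for SREBP1 MFGR 1, at 401, was the highest of the remaining 14. These 2 libraries were picked by their values, and no test was made of them.

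The comparison of each differentiated group with its own preadipocytes asked which members rose within 1 sex and treatment. In control males 4 of the 8 members were called, THRSP, ELOVL6, SCD and FASN, against 7.53% of the genes tested. THRSP passed the filter here only through the MCD libraries, so its place in this count rests on the group in which it was high. SCD was 19.9-fold higher in MCD, a difference of 4.32 (SE 0.51, adjusted p = 0.0020, limma). ELOVL6 was 29.3-fold higher at 4.87 (SE 0.54, adjusted p = 0.0016, limma), and FASN was 4.83-fold higher at 2.27 (SE 0.41, adjusted p = 0.0106, limma). Without MCD 4, the library of this comparison that stands apart, these 3 remained called, and THRSP was no longer tested because too few libraries reached the filter. SREBP1 differed by 1.76 (adjusted p = 0.0197, limma) and lost its call without any 1 of 6 libraries, MC 2, MC 3, MC 4, MCD 2, MCD 3 and MCD 4, with differences of 1.55 to 1.76.

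In control females 0 of the 7 members tested were called, against 0.430% of genes. In limma 4 members had an unadjusted p-value below 0.05, as did 1468 of the 11634 genes tested. ELOVL6 was at 2.83 (adjusted p = 0.2166, limma), SCD at 2.37 (adjusted p = 0.2634, limma) and FASN at 1.58 (adjusted p = 0.2374, limma). The FCD 4 library, with the lowest ADIPOQ, stood near its preadipocytes, with a difference from FC 4 of 0.15 for ELOVL6 and -0.55 for SCD, where the other same-numbered pairs were at 3.18 to 4.44 and at 1.89 to 4.47. THRSP, with only 3 libraries at 10 or more, was not tested. Without the filter its difference was 5.55 (adjusted p = 0.1344, limma).

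In growth restricted males 1 member, THRSP, was called among 8, against 3.38% of genes, at a fitted 6.68 (adjusted p = 0.0242, limma). It passed the filter only through the MFGRD libraries, so this count of 1 gives no support of its own. This call was lost without any 1 of MFGR 2, MFGR 3 and MFGR 4 (6.58 in each case), and the gene was no longer tested without any 1 of the MFGRD libraries. SCD was at 0.83 with a 95% interval from -1.24 to 2.89, and FASN at 0.33 with an interval from -1.10 to 1.75. Both intervals included 0. In control males the intervals were 3.18 to 5.45 for SCD and 1.36 to 3.18 for FASN, and that of FASN overlapped with the one here. The direct comparison of the MFGR and MC responses, given below, called no member (smallest adjusted p = 0.9662, limma). FASN was higher in 2 of 4 same-numbered pairs and SCD in 3, whereas ELOVL6 and THRSP were higher in all 4. With the replicate number as a block, 2 members were called, THRSP and ELOVL5, the latter at -0.97 (adjusted p = 0.0106, limma). Without MFGR 1 and MFGRD 1, which stand apart, SCD was at -0.23 and FASN at -0.46, ELOVL5 was called at -1.09 (adjusted p = 0.0240, limma), and THRSP was not tested.

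In growth restricted females 1 of the 7 members tested was called, against 2.67% of genes. This was SCD, 11.9-fold higher at 3.58 (SE 0.69, adjusted p = 0.0373, limma). The call was lost when any 1 library except FFGRD 4 was left out, with differences of 3.11 to 3.87. ELOVL6 was at 4.65 (adjusted p = 0.0704, limma), FASN at 2.54 (adjusted p = 0.0938, limma) and ACACA at 1.77 (adjusted p = 0.2064, limma). THRSP was not tested, and without the filter it was at 6.83 (adjusted p = 0.0904, limma). Without FFGR 2, FFGR 3 and FFGRD 3, which stand apart, no member was called, and SCD was at 3.24 (adjusted p = 0.1394, limma).

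**Figure D3:**
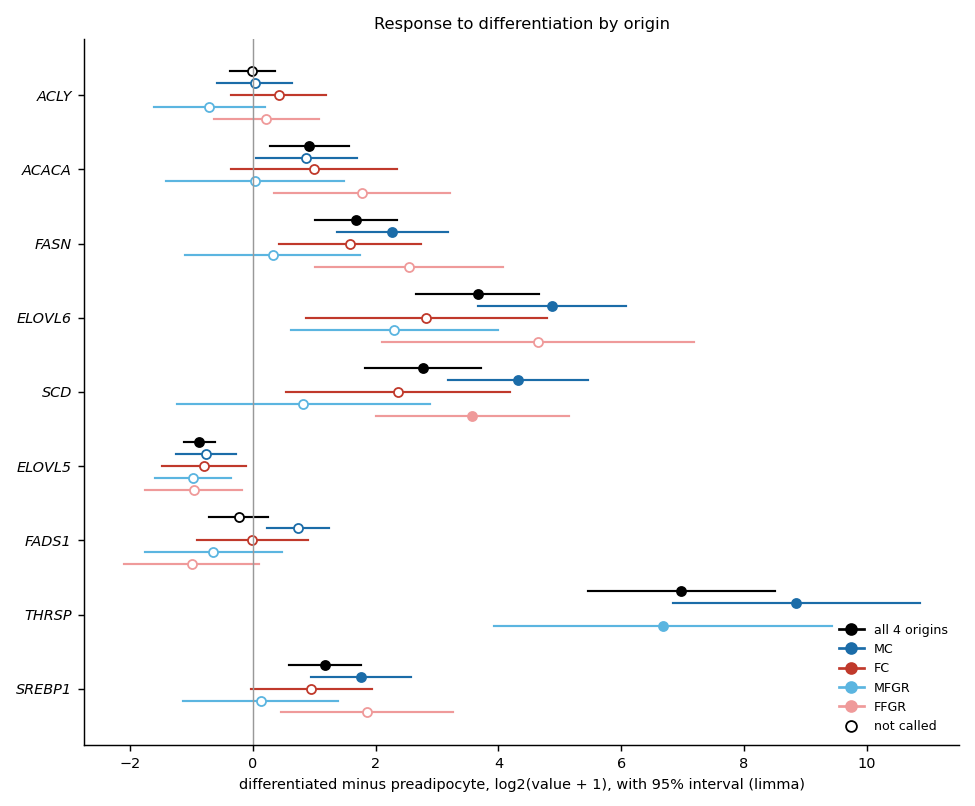
Difference between differentiated and preadipocyte libraries for each gene, on the log2(value + 1) scale with 95% intervals from limma, for all 4 origins together and for each; filled points were called. SCD runs from 0.83 in MFGR to 4.32 in MC, and THRSP is missing in FC and FFGR, where it was not tested.

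Whether these responses differed between origins was tested on the difference itself. The MFGR response minus the MC response was -3.49 for SCD (95% interval -5.87 to -1.12, unadjusted p = 0.0067, limma), -2.57 for ELOVL6 and -1.95 for FASN, and was -2.17 for THRSP with an interval from -5.58 to 1.24. None of the 8 members was called (smallest adjusted p = 0.9662, limma), and 0% of all genes tested were. The unadjusted p-value was below 0.05 for 4 members and for 195 of the 12220 genes tested. ADIPOQ differed in the same direction, by -3.64 (unadjusted p = 0.0399, limma). Without the libraries that stand apart, SCD was at -4.81 and FASN at -2.81, with an adjusted p-value of 0.9986 in limma.

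Against the mean response of MC, FC and FFGR, the MFGR response differed by -2.59 for SCD, -1.81 for FASN and -0.93 for ACLY. In this comparison 0 members were called (adjusted p = 0.9998, limma), with 3 members and 74 of 12737 genes at an unadjusted p-value below 0.05. THRSP was at -0.39 (95% interval -3.96 to 3.17) and ADIPOQ at -0.16 (95% interval -3.61 to 3.29). The FFGR response minus the FC response was positive for SCD (1.21), ELOVL6 (1.82) and FASN (0.96), with intervals that all included 0. No member was called in this comparison or in that of the male with the female responses. The unadjusted p-value was below 0.05 for 0 members in either, and for 40 of 12271 and 116 of 12737 genes. Averaged over sex, the growth restricted response minus the control response had an unadjusted p-value below 0.05 in 132 of 12737 genes and in 1 member, FADS1. It was at -1.18 there (unadjusted p = 0.0099, adjusted p = 0.9883, limma).

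**Figure D4:**
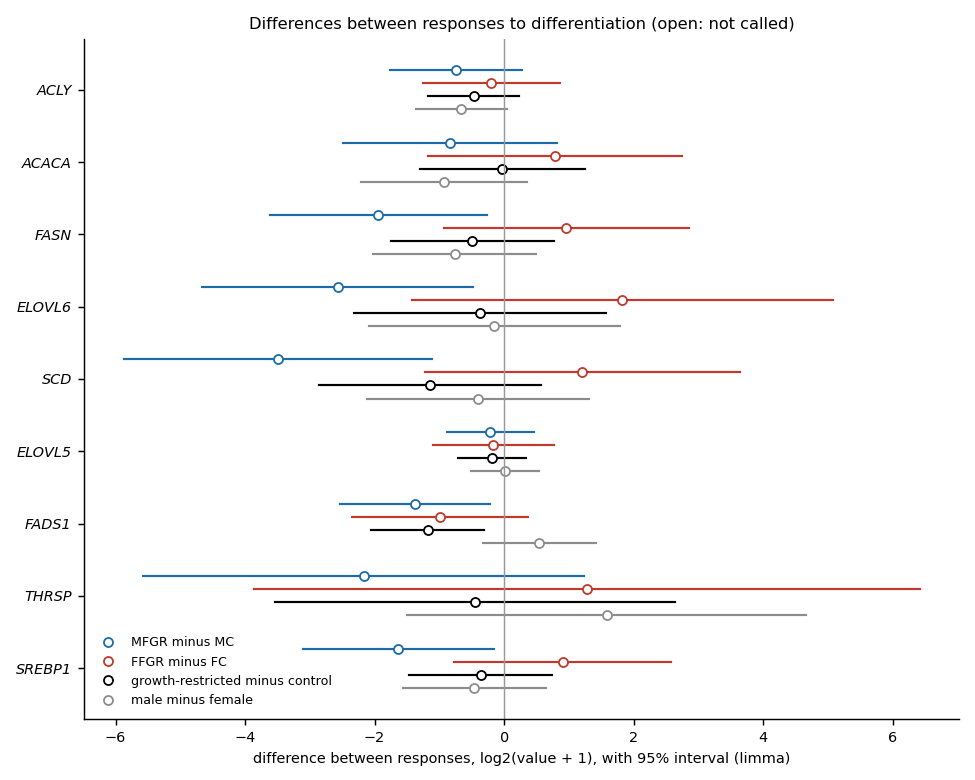
Differences between responses to differentiation for each gene, on the log2(value + 1) scale with 95% intervals from limma; open points were not called. The MFGR minus MC intervals of SCD, ELOVL6, FASN, FADS1 and SREBP1 lie below 0, and no difference was called over all genes.

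Growth restriction and sex were also compared within each stage. In all of these comparisons 0 members were called, and 0% of all genes tested were called by limma. Between 0 and 3 members and between 37 and 538 genes, of 11487 to 12138 tested, had an unadjusted p-value below 0.05. Among preadipocytes FADS1 was higher with growth restriction by 0.84 (unadjusted p = 0.0098, adjusted p = 0.8119, limma). FASN was higher in male than in female preadipocytes by 0.95 (unadjusted p = 0.0290, adjusted p = 0.8179, limma), a comparison that holds the MFGR 2 and MFGR 4 libraries. Neither passed the adjustment.

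After differentiation, MCD lay above FCD by 2.63 for ELOVL6, 1.97 for SCD and 1.11 for FASN, each with an adjusted p-value of 0.8729 in limma. ADIPOQ was higher in MCD by 4.10 (unadjusted p = 0.0215, limma). MFGRD minus MCD was -2.11 for ELOVL6 (unadjusted p = 0.0198, adjusted p = 0.9998, limma), and the ADIPOQ difference was -2.46. The medians of FASN, SCD, ELOVL6 and THRSP were all ordered MCD, FFGRD, FCD, MFGRD, and the ranges of each pair of neighbours in this order overlapped for each of these genes.

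The genes around the pathway were read from lists by function. Of 13 listed genes that supply citrate, acetyl-CoA and NADPH, 3 rose and 1 fell between the stages, near the 27.9% called over all genes, with a median of 0.08 beside 0.035 over all genes. ACSS2, which makes acetyl-CoA from acetate, rose by 2.81 (adjusted p = 0.000151, limma), from a median of 81.3 to one of 587. SLC2A4, the insulin-responsive glucose transporter, was called at 2.68, from a median of 0 to one of 5.44, and its fitted difference depends on the pseudocount. Its highest preadipocyte value was 2.55, so it passed the filter only through differentiated libraries. Its place among the genes that rose rests on the stage in which it was high. ME1, an enzyme that makes NADPH, fell by 0.66 (adjusted p = 0.0019, limma). PGD rose by 0.80, and IDH1, at 0.04, was not called.

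Of 15 genes that control lipogenesis by transcription or by processing of SREBP, 5 rose and none fell, with a median of 0.38, where 12.7% of all genes tested rose and 15.2% fell. They included CEBPA at 4.02 and PPARG at 2.26. MLXIPL, the carbohydrate-responsive factor ChREBP, was at most 6.51 in preadipocytes and passed the filter only through differentiated libraries, and its fitted 3.01 depends on the pseudocount. CEBPA and PPARG also stand in the adipocyte marker list. SREBF2, the sterol-regulating relative of SREBF1, was at 0.14 (adjusted p = 0.5464, limma). None of the 8 genes that control the activity of acetyl-CoA carboxylase was called, with a median of 0.01, and MID1IP1, the close relative of THRSP, was at -0.05.

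Of the 8 elongation partners and other elongases tested, 3 rose and 2 fell, with a median of 0.34, where 27.9% of all genes were called. ELOVL3 was called at 3.06, with a highest preadipocyte value of 3.65 and values of 0 to 374 after differentiation, through which alone it passed the filter. HACD2, a dehydratase of the elongation cycle, rose by 1.64, and its relative HACD4 fell by 3.03 (adjusted p = 2.73e-07, limma). ELOVL1, at 0.17, and ELOVL4, at -0.05, were not called, and ELOVL2 and ELOVL7 were too low to test. Of the 6 other desaturases and electron donors tested, 1 rose and 2 fell, with a median of -0.13. CYB5A, the cytochrome b5 that passes electrons to desaturases, rose by 2.02. SCD5, the second stearoyl-CoA desaturase, fell by 1.53 (adjusted p = 0.000328, limma), opposite to SCD, and CYB5R3 fell by 0.70. FADS3 was at -0.61 (adjusted p = 0.1508, limma), and ACACB, the mitochondrial carboxylase, was at 0.02 (adjusted p = 0.9875, limma).

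**Figure D5:**
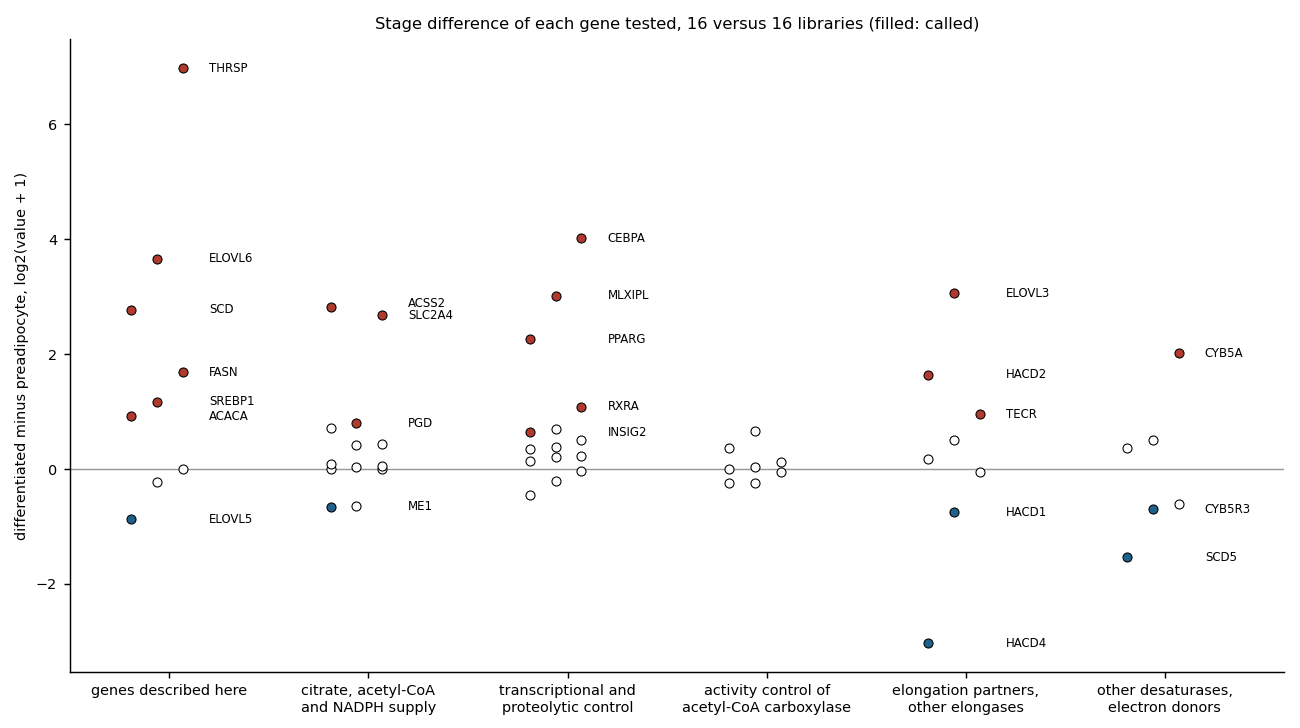
Difference between the stages on the log2(value + 1) scale for each tested gene of the pathway and of the lists around it; filled points were called, red higher and blue lower after differentiation. The called genes run from HACD4 at -3.03 to THRSP at 6.98, and no gene of the carboxylase list is called.

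In Oar_rambouillet_v1.0 FASN lies on chromosome 11 at 12314764 to 12331251, ACLY on chromosome 11 at 21041808 to 21083497 and ACACA on chromosome 11 at 50060241 to 50348330. SCD lies on chromosome 22 at 23879130 to 23891151, ELOVL5 on chromosome 20 at 27008722 to 27073084 and ELOVL6 on chromosome 6 at 18329750 to 18464982. FADS1 lies on chromosome 21 at 42130627 to 42139928 and THRSP on chromosome 21 at 19671473 to 19671916.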

How the data were processed

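RNA-seq was made from 32 libraries of perirenal preadipocytes and differentiated cells. The authors checked reads with FastQC (0.11.9 in the submitters' processing notes), quantified transcripts of Oar_rambouillet_v1.0 with Salmon and normalized the counts with DESeq2. The deposited signal is this normalized read count per transcript, which may also have been divided by a factor that differs between transcripts. The worth of 1 read, and with it the floor of 3 reads, is therefore approximate. Deposited columns of fold changes and p-values and of group means were not used.

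Libraries were grouped by their labels. Transcripts were summed per gene, and genes with a value of at least 10, which is 5.6 to 14.4 reads, in at least 4 libraries of a fit were tested with limma 3.58.1 (R 4.3.3, empirical Bayes with a trend) on log2(value + 1). P-values were adjusted over all genes of a fit (Benjamini-Hochberg). The 16 versus 16 comparison had origin as a term, comparisons of 2 groups used their own 8 libraries, and responses were compared by interaction contrasts. The script was tested on simulated data. The study's own counts test was not used because the values are not whole reads. The floor of 3 reads covers counting error only. Alternatives were a pseudocount of 0.1, other filters, quantile normalization, a replicate block, the span slope as a covariate, library weights, 1 fit of all groups and leaving out libraries.

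The members and lists were chosen with earlier results of these data known. Relatives and pathway genes were named by list, with the 3 largest called differences of each list, and INSIG1 and SREBP1 were named after their values were seen. Profile likeness is Pearson's r over the 16 differentiated libraries. Same-numbered libraries of both stages deviated together in MC (r of 0.162 to 0.615), FC (0.303 to 0.508) and MFGR (0.393 to 0.671). In FFGR they did so at 0.331, 0.565 and 0.529, but not in replicate 2 (-0.398). The differentiated library most like MC 2 was MCD 1, and that most like FFGR 1 was FFGRD 2. In the first 3 origins the numbers were read as likely pairs, from the data and not from the labels. The main fits did not use them, and whether same-numbered libraries share an animal was not tested.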

Additional observations from a re-analysis of the deposited data

Results flagged for a closer look

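Of 70 groups of 4 libraries examined over the members and SREBP1, 3 had 1 library far from the others, where chance gives about 1 in 20. THRSP was at 0.724 in FCD replicate 4, against 94.4 to 191 in the other FCD libraries, and this library also had the lowest ADIPOQ, at 8.59. THRSP was at 1.35 in MFGR replicate 1, against 0 in the other MFGR libraries, which is within 3 reads. ELOVL5 was at 1149 in MCD replicate 2, against 1031 to 1044 in the other MCD libraries. No difference between the responses of the groups passed its test.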

How the results depend on the processing

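The 16 versus 16 count of 6 called members lay between 5 and 6 with another pseudocount, filter or normalization, the replicate block, the span slope, library weights or without the libraries that stand apart, and at 6 when each library was left out in turn, and the transcript count lay between 9 and 11 without single libraries. The member count was 7 with SREBP1 counted as SREBF1 and 4 with an absolute log2 difference above 1.5, both alternatives chosen after seeing the data. The counts within origins moved more. They are given without the share of all genes called in the same setting, so they cannot be set against it. With library weights there were 7 called members in MC, 3 in FC, 3 in MFGR and 6 in FFGR. In FFGR the weights gave ELOVL6 an adjusted p-value of 0.0493 at an unadjusted 0.0175, in limma. The main fit gave ACACA 0.2064 at an unadjusted 0.0208, so more genes passed the adjustment with the weights. In 1 fit of all 8 groups there were 1 in FC, 2 in MFGR and 5 in FFGR. With the span slope as a covariate there were 2 in MFGR and 4 in FFGR, and ACACA and FADS1 were added in MC. With a filter of 20 CPM in 3 libraries there were 0 in both MFGR and FFGR. With the replicate block there were 2 in MFGR, and without the libraries that stand apart 0 in FFGR. Leaving out each library gave 3 to 4 in MC, 0 in FC, 0 to 2 in MFGR and 0 to 2 in FFGR. In MC, and in MFGR without an MFGRD library, THRSP was lost by falling under the filter. The replicate block added ELOVL5 in MC and in MFGR and changed no other call of a member within an origin, and in FFGR, where replicate 2 did not pair, it left 1. The cause of the other changes was not tested. No member reversed its called direction, and 0 members were called for sex, growth restriction or responses in any setting. With 4 libraries a group, the spread between libraries limits what can be called, and values near 3 reads are known only to within a few reads.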
